A study of Rattus norvegicus with 7 samples.

Results

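The transcription factors that make and maintain a macrophage, together with the receptors for its growth factors, were read on rat microarrays of the alveolar macrophage line NR8383 after a short exposure to zinc oxide nanoparticles (ZnO NPs). The set held 9 of the 36174 gene names on the array, namely the 6 factors Spi1, Cebpa, Cebpb, Klf4, Runx1 and Zeb2 and the 3 receptor genes Csf1r, Csf2ra and Csf2rb. Every non-control probe that the array design names for one of them was taken, which gave 17 probes on 36 spots, of 45598 probes in all. Within the set, probes were taken by gene name and not by their values.

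NR8383 is a permanent line of alveolar macrophages that was first obtained by washing out the lung of a healthy rat. The control group was 4 cultures kept for 4 h without NPs and the ZnO group was 3 cultures kept for 4 h with ZnO NPs, at 2 µg/mL as labelled, and both groups were in medium without serum. The study's methods describe the cultures as biological replicates but give a higher dose than the labels do. The files do not settle which is right, and the labelled dose is used here. As a cell line NR8383 stands for alveolar macrophages alone, without the other cells of the lung, and it grows partly attached and partly floating.

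Macrophages are set apart from other blood cells by a small group of DNA-binding proteins. Spi1 encodes PU.1, the ETS-family factor without which macrophages do not form, and Runx1 acts ahead of it in blood stem and progenitor cells. The C/EBP proteins encoded by Cebpa and Cebpb bind beside PU.1 at many myeloid enhancers, the first mainly in progenitors and the second in mature and activated macrophages. Klf4 is a zinc finger factor of the monocyte lineage and Zeb2 is a zinc finger repressor that helps to keep tissue macrophages in their identity. Csf1r is the tyrosine kinase receptor for macrophage CSF and IL-34. Csf2ra and Csf2rb encode the ligand-binding alpha chain and the signalling beta chain of the GM-CSF receptor, and the GM-CSF signal is the one that alveolar macrophages need in order to mature.

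Spi1 and both chains of the GM-CSF receptor were each read by a single probe, and Cebpb and Zeb2 by more. The array sequences of 5 probes are printed to show what was hybridised for these genes. Each is 60 bases long, written 5′ to 3′ and in lower case, because no base in them is singled out. Positions are those the array files give on the rat build rn4.
Spi1, probe A_44_P433783, chr3:75475250-75475309, plus strand: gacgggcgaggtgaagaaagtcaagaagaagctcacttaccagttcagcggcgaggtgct
Cebpb, probe A_44_P348922, chr3:158827280-158827339, plus strand: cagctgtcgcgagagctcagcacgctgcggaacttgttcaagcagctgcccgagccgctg
Zeb2, probe A_44_P1057427, chr3:25513050-25513109, minus strand: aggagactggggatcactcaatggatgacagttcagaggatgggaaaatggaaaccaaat
Csf2ra, probe A_43_P18551, with no position in the files: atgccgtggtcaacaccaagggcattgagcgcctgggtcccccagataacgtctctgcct
Csf2rb, probe A_44_P398210, chr7:116270933-116270992, plus strand: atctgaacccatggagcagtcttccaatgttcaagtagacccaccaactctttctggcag

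Each of these 5 probes, and 13 of all 17, can be read in at least 1 forward frame without a stop codon, which does not show that they lie in coding sequence. Across all 17 probes the GC content ran from 20% to 65%. The longest stretch that probes of different genes in the set had in common was 9 bases. In 3 of the probes, for Cebpb, Runx1 and Zeb2, a polyadenylation signal (AATAAA or ATTAAA) stood near the 3′ end, 14, 9 and 3 bases from it respectively. No annotation of rn4 was used, so exons and introns are not assigned to the probes.

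Whether a gene could be followed at all was settled first. A probe entered the test if every array of the control group, or every array of the ZnO group, had it marked by the scanner software as well above background. This held for 14 of the 17 probes and for 8 of the 9 genes, and each of the 14 was in fact well above background on all 7 arrays. Over the whole design 20065 probes were tested. The log2 values below are relative to the 75th percentile of the same array, so they can be set against the same probe on other arrays but not against another probe.

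Cebpa was the gene that could not be followed. Its probe A_44_P1088296 (chr1:87628721-87628780) had intensities of 7.49, 23.9, 11.6 and 6.35 on control replicates 1 to 4 and of 4.70, 5.47 and 6.13 on ZnO replicates 1 to 3. Only control replicate 2 was well above background. The dimmest spots that counted as well above background had intensities of 16.7 to 20.3 in the controls and 18.8 to 24.6 after ZnO. The other Cebpa probe, A_64_P025108 (chr1:87627393-87627452), had 3.98 to 5.77 in the controls and 4.65 to 6.12 after ZnO, and was well above background on none of the 7. No fold change is given for this factor of myeloid progenitors.

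Csf1r was represented by a bright probe and a dim one. The dim probe, A_44_P503932 (chr18:57061458-57061517), had intensities of 4.91 to 6.20 in the controls and 4.77 to 6.46 after ZnO and was well above background on none. It lies 43713 bases from the bright probe on rn4, and its transcript accession was not among those of the current annotation. All values for Csf1r therefore come from the bright probe, A_44_P257582, which the files place at chr18:57105231-57105932 on the plus strand. That span of 702 bases is longer than the probe.

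**Figure D1:**
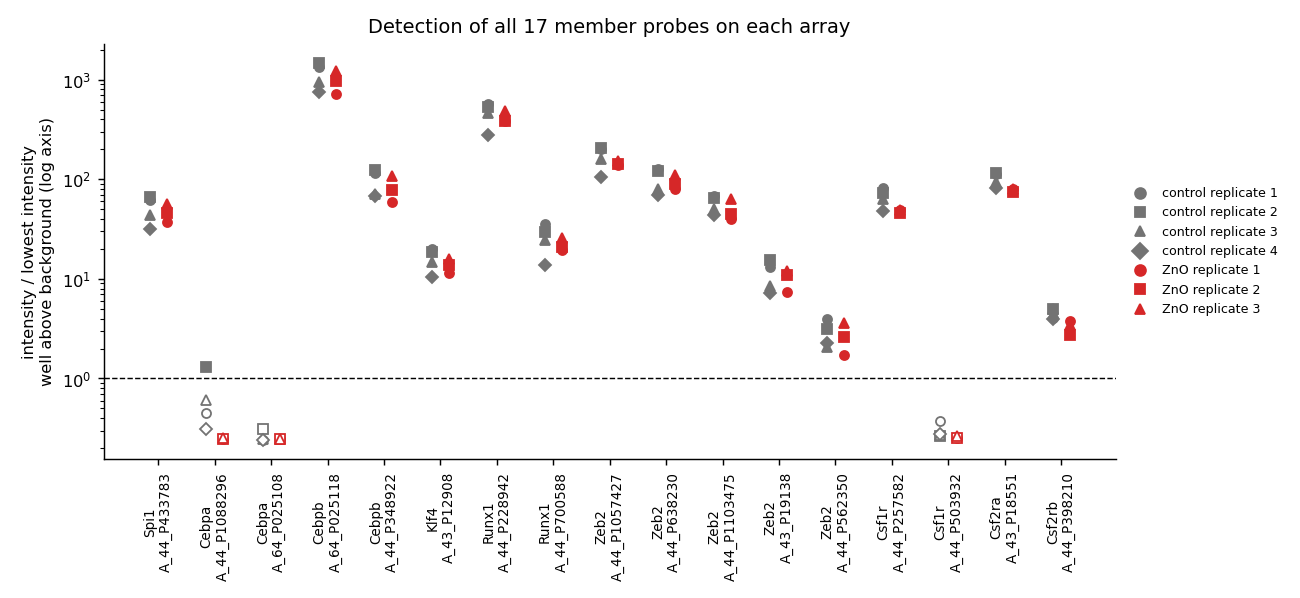
Intensity of each of the 17 probes on each array, divided by the lowest intensity that counted as well above background on that array (log axis), with control arrays in grey, ZnO arrays in red and open symbols where the probe was not well above background. Both Cebpa probes and 1 Csf1r probe lie under the dashed line at 1 on all arrays, apart from Cebpa on control replicate 2, and the other 14 probes lie above it on all 7.

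None of the 8 genes tested passed the threshold for a difference after ZnO. Of the 14 probes tested, 0 had an adjusted p under 0.05 in limma (Benjamini-Hochberg adjustment over all 20065 probes), where 0.0498% of all probes did. At an unadjusted p under 0.05 the count was 1, the Csf1r probe, where 5.91% of all probes passed. In 0 of the 14 did the 7 arrays separate by group, which they did in 7.38% of all probes tested. At the thresholds of the study's methods, an adjusted p under 0.001 and a fold over 1.5, 4 probes passed and 0 of them belonged to the set. The study itself reports far more genes for ZnO at these thresholds. Its methods name no test and describe 4 biological replicates per NP, where 3 ZnO arrays were read here. Why the counts differ was not tested. The log2 fold changes of the 14 probes ran from -0.28 to 0.12 with a median of -0.022, beside a median of -0.0064 over all probes tested, and 5 were above 0 and 9 below. RNA was taken from whole cultures, so a smaller number of cells with a transcript and less of it in each cell cannot be told apart.

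The factors and the receptors lay in different places within that range, as a description of these arrays. The 11 factor probes had a median log2 fold change of -0.0029 and ran from -0.040 to 0.12, with 5 above 0 and 6 below. The 3 receptor probes had a median of -0.27 and ran from -0.28 to -0.19, with all 3 below 0. The standard errors of the 14 probes ran from 0.07 to 0.21, and the median was 0.11.

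**Figure D2:**
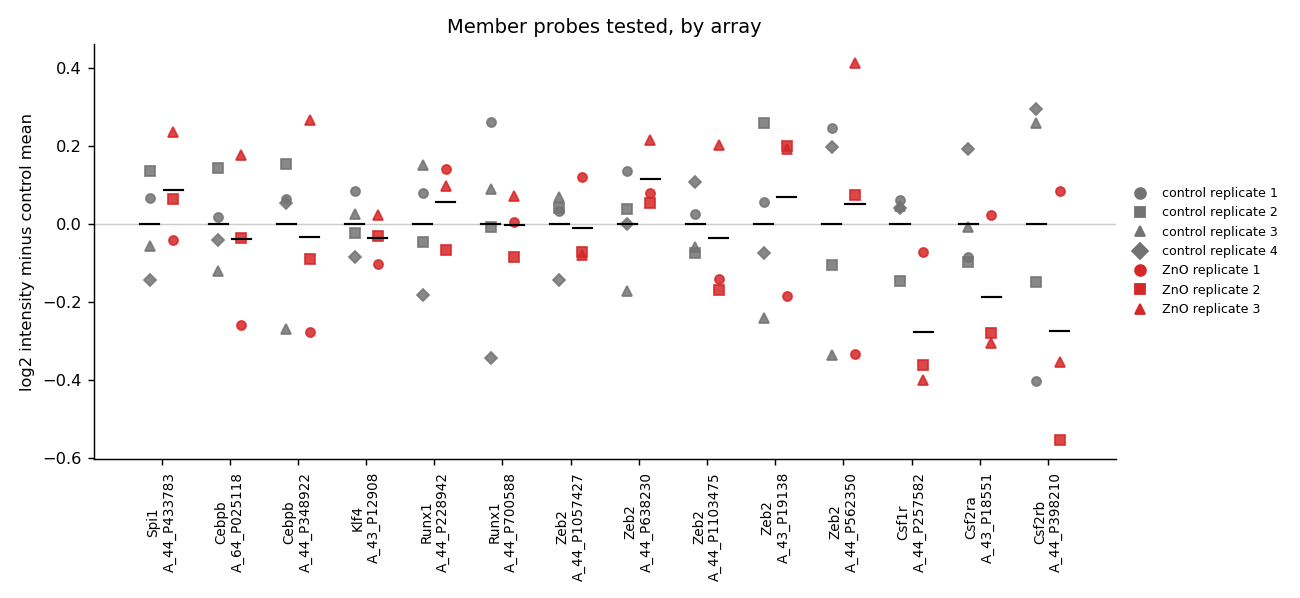
Log2 intensity of the 14 probes tested on each array, minus the mean of that probe on the control arrays, with control arrays in grey, ZnO arrays in red, a symbol for each replicate number and black bars at the group means. The bars of the ZnO arrays lie between -0.04 and 0.12 for the factors and between -0.28 and -0.19 for the receptors, and the arrays of both groups overlap for every probe.

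PU.1 was measured by 1 probe. The Spi1 values were -0.37, -0.30, -0.49 and -0.58 on control replicates 1 to 4 and -0.47, -0.37 and -0.20 on ZnO replicates 1 to 3. ZnO replicate 3 was the highest of the 7 and control replicate 4 the lowest, and the rest were mixed. The log2 fold change was 0.09 ± 0.10 (SE, n = 4 and 3, limma adjusted p = 0.981). Its 95% interval, as a ratio of ZnO to control, was 0.90 to 1.25, and with 1 array left out the log2 fold change ran from 0.01, without ZnO replicate 3, to 0.15, without ZnO replicate 1.

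Cebpb, the C/EBP factor of mature macrophages, was measured by a probe printed on 10 spots and by another printed once, and together they span 541 bases. The 10-spot probe, A_64_P025118 (chr3:158827761-158827820), gave 4.07, 4.19, 3.93 and 4.01 in the controls and 3.79, 4.01 and 4.23 after ZnO. The other probe gave 0.54, 0.62, 0.20 and 0.53 in the controls and 0.20, 0.38 and 0.74 after ZnO. With both probes ZnO replicate 1 was the lowest of the 7 arrays and ZnO replicate 3 the highest, so that the ZnO arrays enclosed the controls. The log2 fold changes were -0.04 ± 0.12 and -0.03 ± 0.15 (SE, limma adjusted p = 0.999 for both).

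Runx1, the factor that acts before PU.1 in blood formation, was also measured by a 10-spot probe and a single-spot probe. The 10-spot probe, A_44_P228942 (chr11:32623591-32623650), gave 2.84, 2.71, 2.91 and 2.58 in the controls and 2.90, 2.69 and 2.86 after ZnO. The other, A_44_P700588 (chr11:32620076-32620135), gave -1.16, -1.43, -1.33 and -1.77 in the controls and -1.42, -1.51 and -1.35 after ZnO. Control replicate 4 was the lowest of the 7 arrays with both probes, and the ZnO arrays lay inside the range of the controls. The log2 fold changes were 0.06 ± 0.10 and -0.0029 ± 0.14 (SE, limma adjusted p = 0.999 for both).

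The repeated spots give the differences between spots within an array, which include the noise of single spots. Such noise is only a part of the technical spread, since labelling, hybridisation and normalization differ between arrays and not within them. Spots of the same probe on the same array differed with a median SD of 0.081 for Cebpb and 0.080 for Runx1 (10 spots each). With both probes, some spots lay above the array mean on every array and others below it on every array. The SD within arrays thus takes in fixed offsets between spots and is not a measure of noise alone. How much of it was noise was not tested. Between arrays of a group the pooled SD of the array means was 0.162 for Cebpb and 0.133 for Runx1. How the spread between arrays divides between cultures and handling was not tested. For Klf4, printed on 2 spots, the values were 0.061 within and 0.068 between arrays.

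**Figure D3:**
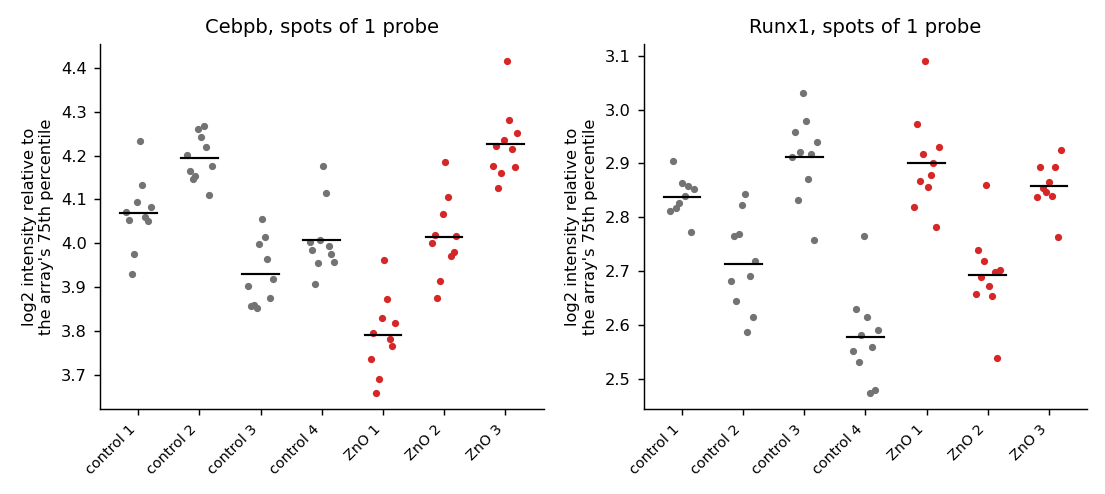
Log2 intensity of each spot of the 10-spot probes for Cebpb and Runx1 on each of the 7 arrays (control grey, ZnO red), relative to the array's 75th percentile, with a black bar at the mean of the spots used. The lowest and the highest mean for Cebpb are both ZnO arrays, at 3.79 and 4.23, and for Runx1 the lowest mean is control 4 at 2.58.

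Klf4, the monocyte zinc finger factor, had the smallest standard error of the set. Its probe A_43_P12908 (chr5:73446994-73447053) gave -1.99, -2.10, -2.05 and -2.16 in the controls and -2.18, -2.11 and -2.05 after ZnO. The groups overlapped and no array stood apart. The log2 fold change was -0.04 ± 0.07 (SE, limma adjusted p = 0.999), with a 95% interval of -0.21 to 0.13. With 1 array left out it ran from -0.067, without ZnO replicate 3, to -0.0041, without ZnO replicate 1, and it was -0.0095 without control replicate 1 and -0.065 without control replicate 4.

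Zeb2, the repressor that maintains macrophage identity, had 5 probes within 7045 bases of chromosome 3. The probe printed above, A_44_P1057427, gave 1.35, 1.36, 1.39 and 1.17 in the controls and 1.44, 1.25 and 1.24 after ZnO. ZnO replicate 1 was the highest and control replicate 4 the lowest. The log2 fold change was -0.010 ± 0.09 (SE, limma adjusted p = 0.999) and its 95% interval was -0.21 to 0.19. The probe A_44_P638230 gave 0.68, 0.59, 0.38 and 0.55 in the controls and 0.63, 0.60 and 0.76 after ZnO, which was the largest difference among the Zeb2 probes, 0.12 ± 0.09 (SE, limma adjusted p = 0.952). It was 0.058 without control replicate 3, 0.066 without ZnO replicate 3 and at most 0.16 with any other array left out. The probe A_44_P1103475 gave -0.20, -0.30, -0.29 and -0.12 in the controls and -0.37, -0.40 and -0.03 after ZnO.

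The remaining Zeb2 probes were dimmer. The probe A_43_P19138 gave -2.58, -2.37, -2.87 and -2.71 in the controls and -2.82, -2.43 and -2.44 after ZnO. The probe A_44_P562350 gave -4.33, -4.68, -4.91 and -4.38 in the controls and -4.91, -4.50 and -4.17 after ZnO, and it had the widest 95% interval among the Zeb2 probes, -0.43 to 0.53. Over the 5 probes the log2 fold change ran from -0.036 to 0.12, with 3 above 0 and 2 below. The study reports a strong fall of Zeb2 after ZnO, though whether at the higher dose of its methods or the labelled one is not settled. No such fall was seen here, and the lowest limit of the 5 intervals was -0.43. Of the 5 probes only A_44_P1057427, with an interval of -0.21 to 0.19, had its transcript among those of the current annotation. Why the results differ was not tested. ZnO replicate 3 was the highest of all arrays with 3 of the probes, A_44_P638230, A_44_P1103475 and A_44_P562350, and among the lower arrays with A_44_P1057427, so probes of the same gene did not rank the arrays alike.

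Csf1r, the macrophage CSF receptor, showed the lowest unadjusted p of the set. Its bright probe gave 0.04, -0.16, 0.03 and 0.02 on control replicates 1 to 4 and -0.09, -0.38 and -0.42 on ZnO replicates 1 to 3. ZnO replicates 2 and 3 were below every control, while ZnO replicate 1 lay above control replicate 2, and the groups overlapped through these arrays alone. The log2 fold change was -0.28 ± 0.10 (SE, n = 4 and 3), a ratio of ZnO to control of 0.825 with a 95% interval of 0.699 to 0.974. The limma p was 0.0287 unadjusted and 0.812 after adjustment, so the difference was not called. With 1 array left out the log2 fold change ran from -0.38, without ZnO replicate 1, to -0.22, without ZnO replicate 3. It was larger than with all arrays in 2 cases, without ZnO replicate 1 and without control replicate 2 (-0.33), and smaller in the other 5.

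Csf2ra, the alpha chain of the GM-CSF receptor, gave 0.53, 0.51, 0.60 and 0.80 in the controls and 0.63, 0.33 and 0.31 after ZnO. Here too ZnO replicates 2 and 3 were the lowest of the 7 arrays, and ZnO replicate 1 lay above 3 of the 4 controls. The log2 fold change was -0.19 ± 0.11 (SE, limma adjusted p = 0.916), with a 95% interval of -0.45 to 0.08. It was -0.29 without ZnO replicate 1 and -0.12 without control replicate 4, a change of over 1.5 times in either case.

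Csf2rb, the beta chain that carries the GM-CSF signal, was the dimmest receptor probe tested. It gave -4.28, -4.02, -3.62 and -3.58 in the controls and -3.79, -4.43 and -4.23 after ZnO. ZnO replicate 2 was the lowest of the 7 arrays, but control replicate 1 was lower than ZnO replicate 3. The log2 fold change was -0.27 ± 0.21 (SE, limma adjusted p = 0.950), with the widest 95% interval of the set, -0.77 to 0.22. It was -0.12 in the deposited table of median spot intensities and -0.17 with another background correction (normexp). With 1 array left out it was -0.45 without ZnO replicate 1, -0.14 without ZnO replicate 2 and -0.18 without control replicate 4.

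Seen by array, the receptors of the 3 ZnO cultures did not sit at the same place. The median deviation of the 3 receptor probes from their control means was 0.02 on ZnO replicate 1, -0.36 on replicate 2 and -0.35 on replicate 3. On control replicates 1 to 4 the same median was -0.08, -0.15, 0.04 and 0.19. The median of the 11 factor probes on the ZnO arrays was -0.10, -0.04 and 0.19 in the same order, and that of all probes tested stayed between -0.025 and 0.018 on all 7 arrays. ZnO replicates 2 and 3 thus carried the lower receptor values.

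**Figure D4:**
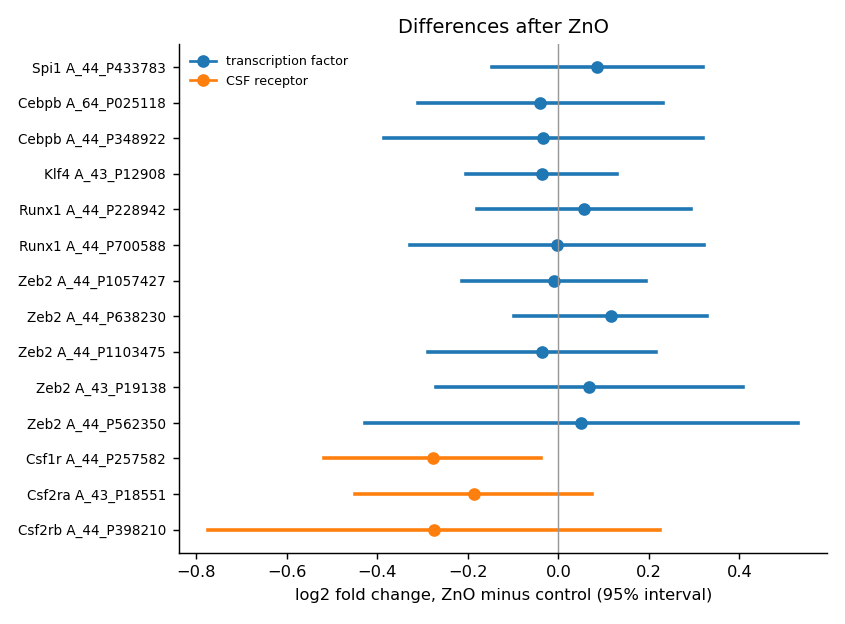
Log2 fold change (ZnO minus control, n = 3 and 4 arrays) of the 14 probes tested, with its 95% interval from limma, factors in blue and receptors in orange. The interval of Csf1r, -0.52 to -0.04, is the only one that does not include 0, before any adjustment for the number of probes tested.

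**Figure D5:**
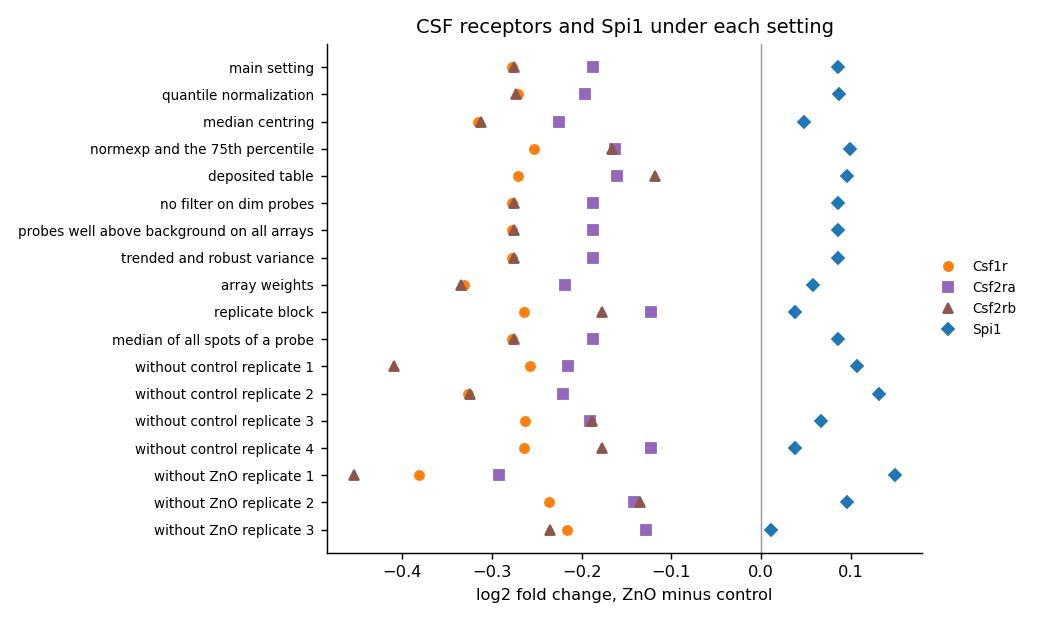
Log2 fold change (ZnO minus control) of the receptor probes and of Spi1 under the main setting and 17 other settings of normalization, filter, model and arrays left out. Csf1r stays between -0.38 and -0.22, Csf2ra between -0.29 and -0.12, Csf2rb between -0.45 and -0.12 and Spi1 between 0.01 and 0.15, and none of these values was called.

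The transcripts of CSF ligands and related receptors were mostly under the detection limit of the arrays in these cells. Ligand proteins were not measured. Of 15 genes for CSF ligands and related receptors, 4 could be tested and 0 were called. Csf1 and Csf2, the ligands of Csf1r and of the GM-CSF receptor, were well above background on 0 of 7 arrays, and so were Il3, Csf3r, Il5ra, Kit, Kitlg and Sdc1. Il34, the other ligand of Csf1r, was well above background on 1 array. The genes tested were Flt3lg, the ligand of the progenitor receptor Flt3, with a log2 fold change of 0.20 ± 0.10 (SE), Csf3, which encodes granulocyte CSF, at 0.16 ± 0.17, Il3ra, the alpha chain of the IL-3 receptor, at -0.07 ± 0.15, and Flt3 itself at 0.09 ± 0.37, with adjusted p from 0.870 to 0.999 in limma.

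The kinases, adaptors and feedback inhibitors that act downstream of the CSF receptors gave 42 genes tested of 47 listed. In limma 0 were called in either direction, 1 was higher and 2 were lower at an unadjusted p under 0.05, which is 7.14% beside 5.91% of all probes tested. In 4, or 9.52%, the groups did not overlap, beside 7.38%. The median log2 fold change was -0.014. The lowest unadjusted p values belonged to Pik3cg, the gamma catalytic subunit of PI3 kinase, at -0.36 ± 0.10 (SE) and to the kinase gene Akt1 at -0.18 ± 0.06. Their adjusted p values in limma were 0.690 and 0.781.

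Other transcription factors of the myeloid lineage gave 49 genes tested of 66 listed, with 0 called. Here 1 was higher and 2 were lower at an unadjusted p under 0.05, which is 6.12% beside 5.91% of all probes tested. The groups did not overlap in 2, or 4.08%, beside 7.38%, and the median log2 fold change was 0.04. Id2, an inhibitor of helix-loop-helix factors, stood at 0.36 ± 0.08 (SE), with every ZnO array above every control. Irf4, an interferon regulatory factor, stood at -0.33 ± 0.10, with every ZnO array below every control, and the helix-loop-helix factor gene Tcf4 at -0.24 ± 0.09. Their adjusted p values in limma were 0.487, 0.724 and 0.788.

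Macrophage genes long studied as targets of PU.1 or C/EBP proteins gave 27 genes tested of 32 listed, again with 0 called. At an unadjusted p under 0.05 there were 0 higher and 1 lower, 3.70% beside 5.91% of all probes tested, and the median log2 fold change was -0.0088. The lower gene was Tnfrsf11a, which encodes RANK, at -0.39 ± 0.16 (SE), followed by the cytokine genes Il1b at -0.25 ± 0.12 and Tnf at -0.21 ± 0.11. The adjusted p values in limma were 0.827, 0.868 and 0.873. The groups did not overlap in 1 gene, or 3.70% beside 7.38%, namely Fcer1g, the gamma chain of Fc receptors, which is named here after its values were seen and stood higher, at 0.12 ± 0.07 (SE, limma adjusted p = 0.916).

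The array patterns nearest to Spi1 and Csf1r were listed as a description, with no inference about shared control. Distance was the root mean square difference over the 7 arrays after each probe's control mean was taken off, over the brightest tested probe of 9488 named genes. The genes nearest to Spi1 were the stress kinase gene Oxsr1, the ubiquitin ligase gene Arih1 and the RNA-binding protein gene Rbm4, at 0.028, 0.028 and 0.030 log2 units, and 963 genes lay within 0.1, so that these 3 were not far ahead of many others. Around Csf1r 50 genes lay within 0.1, but the median distance over all genes was also larger, 0.25 beside 0.17 for Spi1. The distance takes in the ZnO arrays, so genes near Csf1r have fold changes close to its own by construction. The nearest were the adhesion receptor gene Icam2, the adaptor gene Traf3ip2 and the zinc finger gene Zfp14, at 0.047, 0.051 and 0.061, with log2 fold changes of -0.25, -0.28 and -0.26 and limma adjusted p values of 0.855, 0.729 and 0.786.

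The cells carried the macrophage label in most but not all of its markers. Of 23 macrophage markers with a probe, 16 were well above background on all arrays, among them Cd68, Itgam, Msr1, Lyz2 and Pparg, while Cd163, Marco, Car4, C1qa and C1qc were on none. The log2 of their summed level ran from 7.69 to 7.77 in the controls and from 7.68 to 7.86 after ZnO. Intensities were summed before the log2 was taken, so the bright genes of a list, here such as Lyz2, weigh most. Of the markers of lymphocytes, neutrophils and progenitors, 2 of 10, 2 of 10 and 2 of 9 were well above background on all arrays, and of those of lung structural cells 4 of 15, and 0 of any of these lists were called. The log2 sums ran in the controls and after ZnO from -1.67 to -1.09 and -1.68 to -1.33 for lymphocyte, from -0.93 to -0.62 and -0.82 to -0.68 for neutrophil, from -1.48 to -0.83 and -1.55 to -1.23 for progenitor, and from 0.06 to 0.10 and 0.07 to 0.14 for structural markers. Those on all arrays were Cd3d and Pax5 (lymphocyte), Mpo and Camp (neutrophil), Klf1 and Epor (progenitor), and Pecam1, Cdh5, Col1a2 and Dcn (structural). Cd3e, Csf3r, Elane, Cd34, Kit and Epcam were well above background on no array.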

How the data were processed

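Total RNA was labelled with Cy3 and hybridised to 1-colour Agilent rat arrays. The authors scanned them with Agilent Feature Extraction 11.0.1.1, and the deposited intensities of each spot are background-subtracted signals, not normalized between arrays. The deposited value table equals the median spot intensity for all 58717 spots of each array and was used as an alternative. The study's methods name percentile normalization. The members and gene lists were chosen with earlier results of these data known.

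Intensities were put on the log2 scale and the log2 of each array's 75th percentile was subtracted. Spots of a probe were averaged without those the software marked as outliers. Groups were compared in limma 3.58.1 (R 4.3.3, lmFit and eBayes), with Benjamini-Hochberg adjustment over 20065 of 45598 probes. These were the probes well above background (at least 1 of every 2 spots) on all arrays of a group. The same fit was also run on data simulated with the means and spread of these arrays. A call is an adjusted p under 0.05, and intervals cover 95%. Each listed gene is read by its brightest tested probe. Every member is named, and of each list the 3 genes with the smallest unadjusted p (1 of the signalling list is not reported here) and any called, and the 3 genes nearest to Spi1 and to Csf1r. Gene symbols were matched to RefSeq.

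The 75th percentile intensity was 958 to 1489 in control and 980 to 1603 in ZnO arrays, 51.7% to 56.0% of spots were well above background, and 0 were saturated. The number of arrays limits the precision. The lowest correlation between arrays of a group was 0.991. All 7 arrays share the same slide and scan, with controls in its first column and ZnO arrays in the second, so place and exposure cannot be told apart.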

Additional observations from a re-analysis of the deposited data

Results flagged for a closer look

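In 2 of the 17 probes a single control array stood apart from the other 3 by the gap between values, a test that by chance marks about 1 in 20 groups. The Csf1r probe A_44_P257582 was at -0.16 on control replicate 2, while the other controls were between 0.02 and 0.04, and the gap was 0.902 of the group's range. The Zeb2 probe A_44_P1057427 was at 1.17 on control replicate 4, while the other controls were between 1.35 and 1.39, and the gap was 0.833 of the range. The ZnO group, with 3 arrays, was not examined in this way.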

How the results depend on the processing

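In limma 0 of the 14 probes of the set, and 0 genes of each list, were called under any of 17 alternatives. The count over all probes, 10, went to 5 with no filter on dim probes, to 4 with the replicate number as a block and to 15 with array weights, and was 7 to 8 with 1 array left out. Of 238 results for single probes, 216 kept their direction and 22 reversed, of which the farthest from 0 was Zeb2 A_44_P562350 at -0.13 without ZnO replicate 3. With array weights and the block Runx1 A_44_P228942 was at -0.021 and -0.0039, with quantile normalization Runx1 A_44_P700588 was at 0.0036, and in the deposited table Zeb2 A_43_P19138 was at -0.00014. With 1 array left out, Cebpb ran from -0.18 to 0.089 (A_44_P348922) and -0.15 to 0.069 (A_64_P025118), Runx1 from -0.0039 to 0.12 (A_44_P228942) and -0.12 to 0.084 (A_44_P700588), and Zeb2 from -0.012 to 0.19 (A_43_P19138), -0.075 to 0.025 (A_44_P1057427), -0.16 to 0.030 (A_44_P1103475) and -0.13 to 0.24 (A_44_P562350). The median over the set ran from -0.10, without ZnO replicate 3, to 0.016, without ZnO replicate 1. The causes were not tested.

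Replicate numbers are shared between the groups, but the deviations of same-numbered arrays correlated at -0.09, 0.21 and -0.24. Of the 6 arrays with a shared number, 1 correlated best with its own number. No pairing by number was seen, but so few arrays cannot exclude one. With the replicate block Csf1r was at -0.26 (limma adjusted p = 1.00). The p of Csf1r was under 0.05 before adjustment in 11 of 18 fits, which share the same arrays, and its adjusted p ran from 0.215 to 1.00. The unadjusted limma p was 0.067, 0.061 and 0.059 without control replicate 1, 3 or 4. It was 0.098 and 0.106 without ZnO replicate 2 or 3, and 0.057 with the replicate block. Without control replicate 2 or ZnO replicate 1 it was 0.020 and 0.0037. By Pearson correlation in place of distance, 0 of the 3 genes nearest to Spi1 and 1 of those nearest to Csf1r stayed. With a single slide and scan, no slide block could be fitted.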
